A study of Mus musculus with 10 samples.

Results

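The genes described here encode the proteins of the cytosolic ribosome. They were taken by symbol: Rpl or Rps followed by a number, with the suffix of a paralogue or isoform allowed, together with Rplp0, Rplp1, Rplp2 and Rpsa. Pseudogene symbols, the Rps6k kinases and the ribosomal proteins of mitochondria were left out. This gave 85 genes of the 24594 in the count table, 52 of the large and 33 of the small subunit. A low-count filter left 82 of them among the 14609 genes tested. The other 3 genes are paralogues and are described with their counts below.

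Transcripts were counted by bulk RNA-seq in luminal and basal cells of wild type C57BL/6J mammary glands, the inner and the outer, contractile layer of the duct. Glands were dissociated with enzymes and the layers were separated by cell sorting on EpCAM and CD49f, with 5 libraries of each and no treatment. The labels name no subsets within either layer and give neither the age of the animals nor any pooling. The libraries were grouped by their cell type label, because the sample titles name the opposite layer in all 10 libraries.

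A ribosome is built from ribosomal RNA and one copy of most ribosomal proteins, so the proteins are needed in near-equal numbers and surplus protein is degraded. Their mRNAs are short, abundant and begin with a 5′ terminal oligopyrimidine (TOP) tract, a cytosine followed by a run of C and T, through which mTOR signalling and LARP1 control their translation. Ribosomal protein mRNAs are therefore known for a control that acts on translation, which counts of RNA do not measure.

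Library totals ranged from 13203146 to 17998165 counts, and 16840 to 17842 genes had at least 1 count. The cell type labels were checked on markers. All 10 luminal markers were higher in luminal libraries and all 8 basal markers in basal libraries, by edgeR with an adjusted p under 0.05. The summed immune markers were at 4.81 to 13.4 CPM (counts scaled to the library total multiplied by its TMM factor) in luminal and 12.5 to 34.6 CPM in basal libraries, with the T cell gene Cd3e at 0 in all 10. Most of the basal sum was Cd74 (mean 20.7 CPM against 2.62 CPM), while Cd52 (2.03, adjusted p 0.00664) and Lyz2 (1.69, adjusted p 0.0139) were higher in luminal libraries on the log2 scale. Summed erythroid markers were at 4.74 to 18.3 CPM in luminal and 0.545 to 2.28 CPM in basal libraries. Fibroblast markers were at 23.6 to 110.6 CPM in luminal libraries, highest in library 1 and lowest in library 4, and at 25.5 to 41.0 CPM in basal libraries. Endothelial and adipocyte markers summed to at most 13.9 and 8.87 CPM in any library. All 8 immediate-early genes of a dissociation list (Fos, Jun and others) were higher in basal libraries, where they summed to 3641 to 6176 CPM against 2041 to 2814 CPM in luminal ones, although Junb did not pass with the replicate number as a block (adjusted p 0.0624). The part of these cells and of dissociation in the values below was not tested.

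The first question was how much of each transcriptome the ribosomal protein genes take up. Their share of all counts was 3.47%, 5.81%, 4.17%, 7.03% and 4.47% in luminal libraries 1 to 5. It was 2.49%, 2.15%, 2.36%, 3.48% and 2.26% in basal libraries 1 to 5. Luminal libraries thus lay higher, but luminal library 1 and basal library 4 met at the boundary, at 3.47% and 3.48%. The mean was 4.99% ± 1.42 (SD, n = 5) in luminal and 2.55% ± 0.534 (SD, n = 5) in basal libraries, a ratio of 1.96. Within same-numbered libraries the luminal share was 1.39, 2.70, 1.77, 2.02 and 1.98 times the basal share. Without replicate 4 of both layers, which had the highest share in each, the ratio of the means was 1.93. In a sorted population, fewer cells of a type with a high level and less RNA per cell cannot be told apart.

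**Figure D1:**
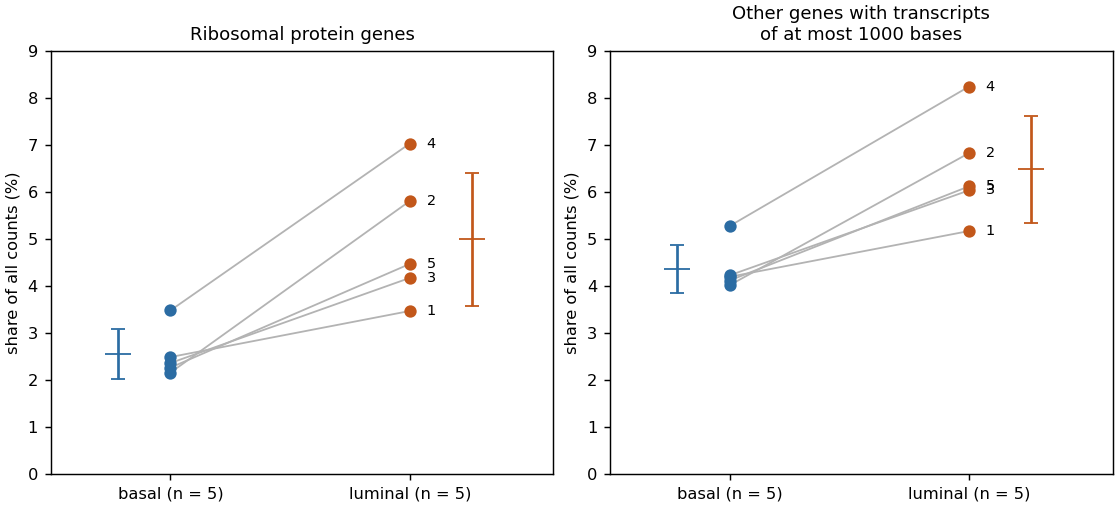
Share of all counts (%) in each library, for the ribosomal protein genes on the left and for all other genes with transcripts of at most 1000 bases on the right. Points are libraries, grey lines join libraries with the same number, printed beside the luminal point, and the bars give mean ± SD (n = 5). Libraries 4 and 2 lead the luminal group and library 4 the basal group in both panels, and basal library 2 is the lowest of its group in both.

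The shift ran through nearly the whole set. Of the 82 genes tested, 72 (87.8%) passed in the luminal direction (edgeR's quasi-likelihood test, adjusted p under 0.05), where 33.6% of all genes tested were called in that direction. None passed in the other direction, where 31.2% of all genes were called. At an unadjusted p under 0.05 this number was 1, the gene Rpl7l1, and DESeq2 and limma voom each called 1. The log2 fold change, luminal against basal, was positive in 81 of 82 genes, with a median of 0.71 against 0.05 over all genes tested. A change of at least 2-fold was called in 16 genes towards luminal cells, beside 20.9% of all genes, and in none towards basal cells, beside 19.1%. The large subunit had 43 of 49 genes higher in luminal cells (median 0.72) and the small subunit 29 of 33 (median 0.69). The difference was moderate in relation to the spread between libraries. Only 16 genes (19.5%) had every luminal library above every basal one, beside 24.7% of all genes, although 59 were higher in the luminal library of all 5 same-numbered pairs, beside 32.8% of all genes. With both libraries of replicate 2 left out, 45 genes passed, all of them among the 72.

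**Figure D2:**
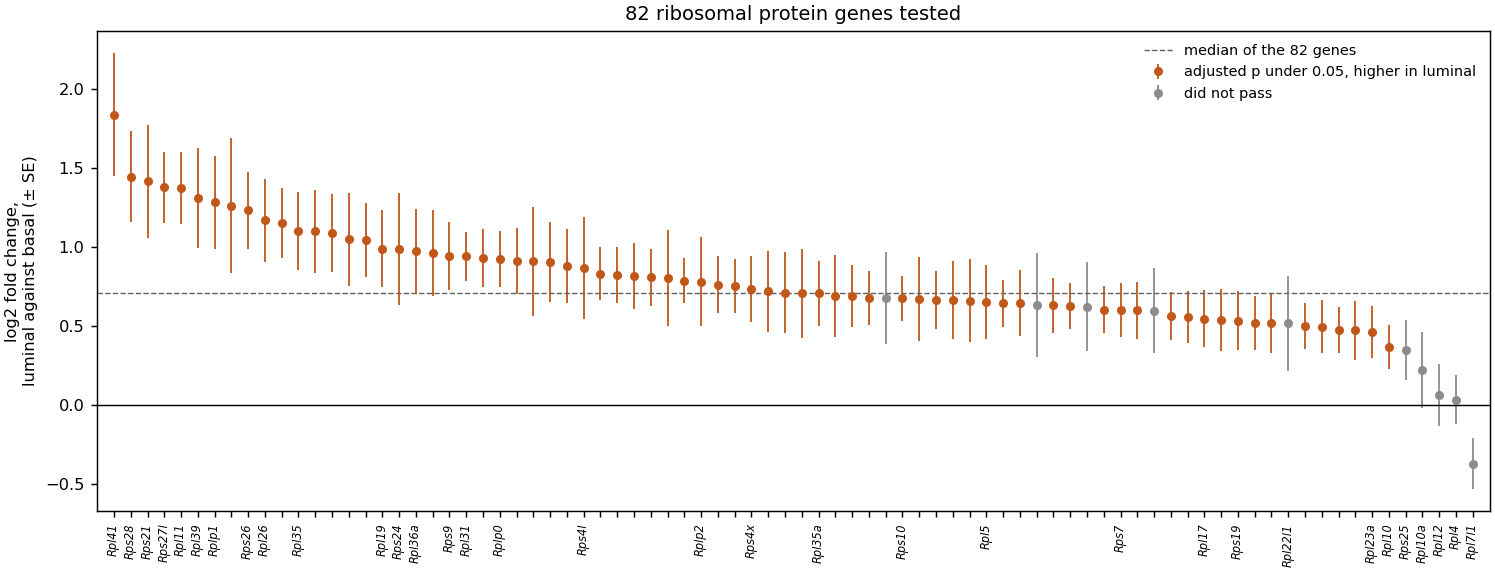
log2 fold change (luminal against basal) of the 82 ribosomal protein genes tested, with bars of 1 SE, from the highest (Rpl41, 1.84) to the lowest (Rpl7l1, -0.37). Genes named by rule are labelled. The 72 genes in orange passed the test, the 10 in grey did not, and the dashed line is the median of 0.71.

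The difference has to be read beside transcript length. The ribosomal protein transcripts had a median length of 767.5 bases, against 2815 bases over all genes tested, and the fold change fell with length among the other genes. Among the other genes the median log2 fold change was 0.93 for transcripts of at most 600 bases (239 genes) and 0.75 between 600 and 1000 bases (756 genes). It was 0.47 between 1000 and 1500 bases, 0.20 between 1500 and 2500, -0.09 between 2500 and 5000, and -0.38 above 5000 bases. The ribosomal protein genes had medians of 0.91 (27 genes), 0.69 (35 genes), 0.68 (12 genes), 0.65 (5 genes), 0.29 (2 genes) and 0.66 (1 gene) in the same classes. Their medians lay close to those of other transcripts of their length up to 1000 bases and above them in the longer classes, which hold few of these genes. Among other genes of at most 600 bases 58.2% were called higher in luminal and 12.1% in basal cells, against 81.5% and 0 of the ribosomal protein genes. Between 600 and 1000 bases these shares were 54.5% and 14.9%, against 97.1% and 0. Between 1000 and 1500 bases they were 46.4% and 18.9%, against 91.7% and 0. The share of all counts from other genes with transcripts of at most 1000 bases was 5.17% to 8.24% in luminal and 4.02% to 5.27% in basal libraries, and luminal libraries followed the same order (4, 2, 5, 3, 1) as for the ribosomal protein genes.

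When offsets for GC content and transcript length were fitted for each library, 10 ribosomal protein genes were higher in luminal cells (32.9% of all genes) and 7 in basal cells (30.7% of all genes), and their median log2 fold change was 0.01. Fitted together with the replicate number as a block, the counts were 12 and 6 and the median -0.02. Of the 10 genes higher in luminal cells, Rpl41 (0.90), Rps28 (0.61), Rpl11 (0.61), Rps27l (0.54) and Rpl27a (0.51) had transcripts of at most 1158 bases, as had Rps26 (0.38, adjusted p 0.0498). Rplp0 (0.46) and Rpl5 (0.57), with annotated transcripts of 1358 and 2045 bases, were also among them. Rps20 (1.06) and Rps15a (1.04) rest on annotated transcripts of 3706 and 5130 bases with long untranslated regions, so that their offsets are uncertain. The 7 genes higher in basal cells were Rpl10a (-0.64), Rps25 (-0.48), Rpl12 (-0.48), Rpl22l1 (-0.44), Rpl10 (-0.40), Rpl23a (-0.38) and Rps19 (-0.32). Each library is of 1 cell type, so a length trend of the cells and one of the libraries cannot be told apart.

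The 6 highest fold changes were those of Rpl41, Rps28, Rps21, Rps27l, Rpl11 and Rpl39. Rpl41 (chr10:128548110-128549168), which encodes the smallest protein of the ribosome, was at 1273, 3044, 1834, 5639 and 1801 CPM in luminal libraries 1 to 5. In basal libraries 1 to 5 it was at 631, 558, 736, 1368 and 508 CPM. Only luminal library 1 fell below a basal library, number 4. On the log2 scale Rpl41 was higher by 1.84 (SE 0.39, adjusted p 0.000874), or 3.58-fold. Rpl41 alone made up 3.88% to 7.96% of the ribosomal protein counts in luminal and 2.16% to 3.71% in basal libraries.

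Rps28 and Rps21 encode small proteins of the small subunit. Rps28 (chr17:33823036-33824562) was at 144, 263, 221, 427 and 214 CPM in luminal libraries and at 77.6, 69.1, 91.6, 157 and 70.4 CPM in basal libraries, a log2 fold change of 1.45 (SE 0.29, adjusted p 0.000508). Rps21 (chr2:180257379-180258444) was at 98.3, 192, 128, 429 and 119 CPM in luminal libraries and at 77.6, 57.9, 56.7, 111 and 58.4 CPM in basal libraries, a log2 fold change of 1.42 (SE 0.36, adjusted p 0.00324). In both genes the overlap came from basal library 4, and luminal library 4 was the highest of all 10.

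Rpl11 and Rpl5 form a particle with 5S rRNA that joins the large subunit and can also bind and inhibit MDM2, the ligase that degrades p53. Rpl11 (chr4:136049354-136053393) was at 193, 354, 219, 435 and 286 CPM in luminal libraries, all above the 116, 95.2, 105, 163 and 94.9 CPM of the basal libraries. Its log2 fold change was 1.37 (SE 0.23, adjusted p 0.000113). Its partner Rpl5 was higher by 0.65 (SE 0.23, adjusted p 0.025), with a luminal mean of 818 CPM (SD 283, n = 5) and a basal mean of 521 CPM (SD 124, n = 5), and its groups overlapped. Both were also higher with the GC and length offsets, Rpl11 by 0.61 and Rpl5 by 0.57. The value of Rpl5 under the offsets depends on its annotated transcript of 2045 bases, against a median of 767.5 for the set. Of the 51-base words of Rpl5 within 1 exon, 92.5% also occur in other transcripts.

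At the other end of the order stood 6 genes with log2 fold changes of at most 0.37. Rpl4 (chr9:64173387-64178562), whose protein reaches into the tunnel through which the new chain leaves, was at 1409, 1512, 1114, 1308 and 1672 CPM in luminal and 1462, 1172, 1406, 1506 and 1314 CPM in basal libraries. The groups overlapped over most of their range, and the luminal library was the higher in 2 of 5 pairs. Its log2 fold change was 0.03 (adjusted p 0.871), with an approximate 95% interval from -0.28 to 0.34. Rpl12 (chr2:32961712-32964045), at the base of the stalk that recruits translation factors, was at 222, 415, 287, 411 and 274 CPM in luminal and 364, 248, 250.1, 371 and 307 CPM in basal libraries. Its log2 fold change was 0.06 (adjusted p 0.795, interval -0.32 to 0.45). Rpl10a, a protein of the mobile arm near the site where spent tRNA leaves, had 0.22 (adjusted p 0.442, interval -0.25 to 0.70), and its luminal value rested on 874 CPM in library 4 against 339.6 to 591 CPM in the others. The direction of these 3 genes was not stable. It turned negative with the GC and length offsets in all of them, without luminal library 4 for Rpl10a (-0.0356), and for Rpl4 and Rpl12 also without the filter and in several fits that left out libraries.

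Rps25, which some viral internal entry sites need, stood at 0.35 (adjusted p 0.123). Rpl10, a late-joining protein near the peptidyl transferase centre, was the lowest of the genes that passed, at 0.37 (SE 0.14, adjusted p 0.0314). Its luminal mean was 272 CPM (SD 30.9, n = 5) and its basal mean 211 CPM (SD 29.2, n = 5). Rpl10, Rps25, Rpl10a and Rpl12 were each higher in basal cells under the GC and length offsets.

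Rpl7l1 was the only member with a negative value. This paralogue of Rpl7 is known from precursors of the large subunit. It was at 52, 39.1, 41.4, 41.6 and 64.6 CPM in luminal and 62.5, 51.3, 62.3, 72.4 and 60.8 CPM in basal libraries. Only luminal libraries 1 and 5 reached into the basal range. Its log2 fold change was -0.37 with an SE of 0.16 (adjusted p 0.0539), and with the replicate number as a block it was -0.39 with an adjusted p of 0.0471. Its annotated transcript, at 2606 bases, was also longer than those of nearly all other members.

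Of the 4 genes tested from the list of paralogues, 2 were higher in luminal cells and none in basal cells, beside 33.6% and 31.2% of all genes. Rpl32l has such a suffix but was not in the list. It was also higher in luminal cells, by 0.91 (SE 0.21, adjusted p 0.00165), and did not pass with the GC and length offsets (0.10). The annotated Rpl32l transcript has 1 exon, and 34.4% of its 51-base words also occur in other transcripts. The part of reads from other genes in its counts was not tested. Rps27l, a paralogue of Rps27 and a known p53 target, was at 57.6, 123, 106, 145 and 93.9 CPM in luminal and 36.6, 35.1, 36.1, 57.8 and 36.9 CPM in basal libraries. It was higher in luminal cells by 1.38 (SE 0.23, adjusted p 9.61e-05), and its groups missed separation only through basal library 4 and luminal library 1. Rps27 itself was higher by 0.67 (SE 0.27, adjusted p 0.04), but stood at -0.14 and did not pass with the GC and length offsets. All of its 51-base words that lie within 1 exon also occur in other transcripts. Rpl22l1, the paralogue of Rpl22, ranged from 70.2 to 239 CPM in luminal and from 71 to 130.1 CPM in basal libraries and did not pass (0.52, adjusted p 0.149), whereas Rpl22 was higher by 1.09 (SE 0.25, adjusted p 0.00146). Rps4l, annotated as a transcribed pseudogene, was low, at 8.52 to 24.7 CPM in luminal and 4.48 to 13.2 CPM in basal libraries, with a log2 fold change of 0.86 (adjusted p 0.0302).

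The tissue-restricted paralogues were at or near 0. Rpl10l, a testis paralogue of Rpl10, had 0 counts in all 10 libraries. Rpl3l, the paralogue of striated muscle, had 2 counts in luminal library 1 and 1 in basal library 3. Rpl39l, another testis paralogue, had 2 counts in luminal library 3. These 3 genes were under the filter and were not tested.

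The stalk proteins P0, P1 and P2, which activate the GTPase factors of elongation, were all higher in luminal cells, beside 33.6% of all genes. Rplp0 was at 1858, 2654, 1651, 2348 and 2328 CPM in luminal libraries, all above the basal libraries, which reached at most 1417 CPM (mean 1143 CPM, SD 165, n = 5; 0.92, SE 0.18, adjusted p 0.000386). Rplp1 was higher by 1.28 (SE 0.29, adjusted p 0.00156) and Rplp2 by 0.78 (SE 0.28, adjusted p 0.0257). Under the GC and length offsets Rplp0 passed (0.46, adjusted p 0.0135), while Rplp1 (0.36) and Rplp2 (0.01) did not.

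Proteins that line the exit tunnel were split, with 2 of the 3 genes listed called higher in luminal cells, beside 33.6% of all genes. Rpl39 (chrX:37082518-37085222) was higher by 1.31 (SE 0.32, adjusted p 0.00224), with a luminal mean of 388 CPM (SD 192, n = 5) and a basal mean of 156 CPM (SD 55.5, n = 5). Rpl17 was higher by 0.55 (SE 0.18, adjusted p 0.0157), and Rpl4 did not pass. The difference between these 3 genes was not tested. Under the GC and length offsets none of the 3 passed in either direction, with Rpl39 at 0.41 (adjusted p 0.105) and Rpl17 at -0.27. At the mouth of the tunnel, where chaperones and the signal recognition particle dock, all 5 genes listed were higher in luminal cells, beside 33.6% of all genes. Rpl26 (1.17), Rpl35 (1.10), Rpl19 (0.99) and Rpl31 (0.94) lay above the median of the set, and Rpl23a (0.46) lay below it. Rpl31 was at 89.5, 161, 105, 129 and 124 CPM in luminal libraries and at a narrow 60 to 72.8 CPM in basal libraries, so that its groups did not overlap. Under the GC and length offsets none of the 5 passed towards luminal cells, Rpl23a passed towards basal cells, and the median fell from 0.99 to 0.14.

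Of the genes mutated in Diamond-Blackfan anaemia, a failure of red cell production, 9 were listed as a further group, which does not hold every such gene. All 9 listed were higher in luminal cells, beside 33.6% of all genes, with log2 fold changes from 0.53 (Rps19) to 1.37 (Rpl11) and a median of 0.71, beside 0.71 for the whole set. Rps26, which contacts mRNA upstream of the start codon, was at 452, 656, 428, 932 and 521 CPM in luminal libraries, all above the 245, 208, 234, 389 and 195 CPM of the basal libraries (1.23, SE 0.24, adjusted p 0.000492). Rps10 was also separated, at 300.5 to 459.5 CPM in luminal and 223 to 249.9 CPM in basal libraries (0.67). Rps24 (0.99), Rpl35a (0.71) and Rps7 (0.60) passed with overlapping groups. Rps19, the gene first linked to the disease, had a luminal mean of 179.6 CPM (SD 45.4, n = 5) and a basal mean of 124 CPM (SD 25.1, n = 5). Under the GC and length offsets 3 of the 9 passed towards luminal cells (Rpl5, Rpl11 and Rps26), Rps19 passed towards basal cells, and the median was 0.09.

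The 4 genes on the X chromosome were all higher in luminal cells, beside 33.6% of all genes, with Rpl39 (1.31) and Rpl36a (0.97) above Rps4x (0.73) and Rpl10 (0.37). Their median of 0.85 stood beside 0.71 for the whole set. Under the GC and length offsets none passed towards luminal cells, Rpl10 passed towards basal cells and the median was 0.05.

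Levels were compared between genes only per kilobase of transcript, as mean CPM per kilobase. In luminal cells the 3 highest genes were Rpl41 (4997), Rplp1 (3808) and Rps9 (2462), and Rplp1 (1563) and Rpl41 (1397) were also among the highest in basal cells. The median was 459 in luminal and 266 in basal cells, and the lowest genes were Rpl7l1 at 18.3 in luminal and Rps4l at 10.9 in basal cells. The order of the 82 genes was largely shared by the cell types, with a Spearman correlation of 0.956 across genes, which share the libraries, the transcript lengths and the counting and are not independent. These levels depend on the annotated transcript length, which is doubtful for Rps15a and Rps20, and on reads lost at junctions or shared with copies.

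To see which members departed from the set itself, each library was scaled to its summed ribosomal protein counts. On this scale 58 of the 82 genes lay within 0.25 of 0 in log2 fold change. The 4 genes above the set in luminal cells were Rpl41 (0.99, SE 0.25), Rps28 (0.66, SE 0.22), Rps27l (0.60, SE 0.22) and Rpl11 (0.58, SE 0.20), where 12.5% of all genes were called. The 4 genes below it were Rpl7l1 (-1.05, SE 0.28), Rpl12 (-0.72, SE 0.21), Rpl4 (-0.68, SE 0.24) and Rpl10a (-0.60, SE 0.20), where 46.9% of all genes were called. These values are a composition within the set, since the sum contains the genes tested.

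The libraries of 1 layer differed in the same direction in nearly all members. Luminal library 4 held the highest luminal value in 61 of the 82 genes and luminal library 2 in 16, while luminal library 1 held the lowest in 60. In the basal group library 4 was the highest in 78 genes, and library 2 was the lowest in 42. The coefficient of variation had a median of 31.9% in luminal and 20.6% in basal libraries and was the larger in luminal libraries in 79 genes. Without luminal libraries 2 and 4 and basal library 4, 62 genes were higher in luminal cells, all among the 72, and the median log2 fold change was 0.52. That the fourth libraries of both layers stood high is seen in same-numbered pairs. The deviations of the members from their group means correlated at 0.86 between luminal and basal library 4, but at -0.06, 0.16, 0.01 and 0.40 in pairs 1, 2, 3 and 5, across genes that are not independent.

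**Figure D3:**
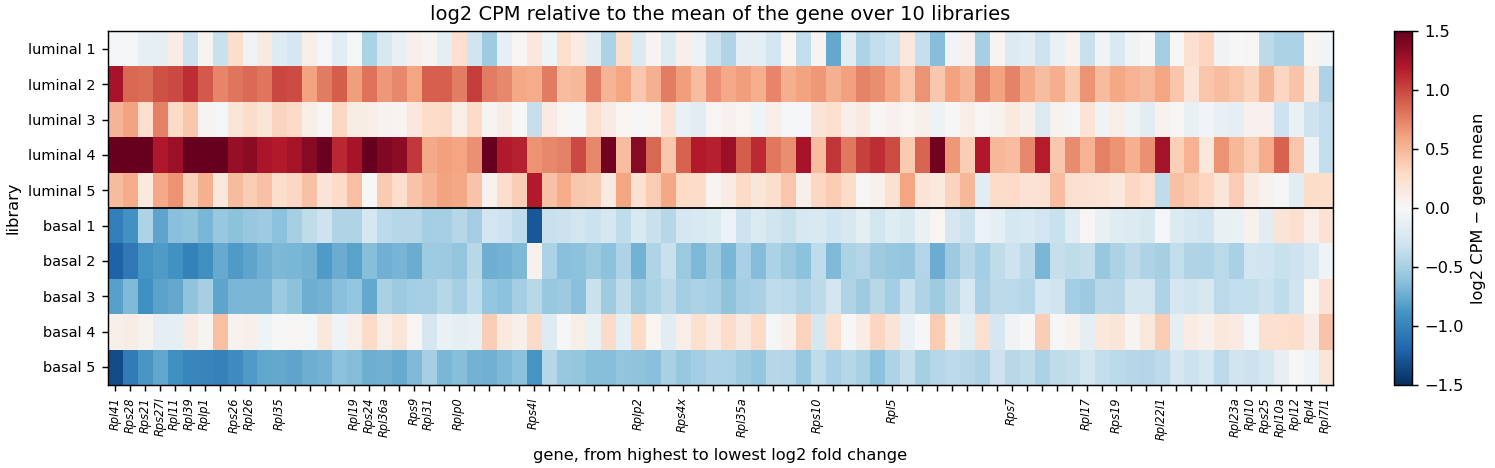
log2 CPM of the 82 ribosomal protein genes (columns, ordered by log2 fold change, with those named by rule labelled) in the 10 libraries (rows), relative to the mean of the gene over all libraries. Red is above and blue below that mean, with the colours saturated at 1.5. Luminal libraries 4 and 2 are red through most of the row, luminal library 1 is nearly white, and basal library 4 stands above the other basal libraries.

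Many of these genes have processed copies in the genome, and a ribosomal protein transcript crosses several splice junctions. Of the members' 51-base words that lie within 1 exon, 51 bases being the read length, a median of 48.1% also occurred in another annotated transcript. These words made up a median of 70.4% of all words of a transcript. Words across junctions were not looked up, and the shared words below are those within 1 exon. Alignment was with Bowtie2, which does not split reads over junctions, with default settings by the study's methods, under which it reports 1 alignment for a read with several matches. How the counting treated such reads is not given in the sources used here. The levels are therefore uncertain, above all for the 8 genes with over 90% of their words shared, among them Rps27 (100%), Rpl35 (99.7%), Rpl10 (97.1%), Rpl23a (94.8%), Rpl36a (93.1%), Rpl5 (92.5%) and Rpl10a (92.3%). Most genes were higher in luminal cells in each class of sharing. Among 15 genes with under 25% of words shared, 12 were higher in luminal cells (median 0.81), among 47 with 25% to 75%, 43 were (median 0.73), and among 20 with over 75%, 17 were (median 0.65), beside 33.6% of all genes. Across the 82 genes the log2 fold change had a Spearman correlation of -0.34 with transcript length, -0.46 with the number of exons, -0.25 with the share of words found in other transcripts, 0.09 with GC content and 0.06 with the share of words within 1 exon, values across genes that share the libraries.

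Promoter sequence was at hand for 64 of the 85 genes, as 300 bases around annotated RefSeq start sites of GRCm38.p6 (250 before and 50 after), and 61 of these genes were tested, with 72 start sites. A cytosine at the annotated start followed by at least 4 further C or T, the form of a TOP tract, was found at 14 of these 72 starts (19.4%), against 2.44% of the 14468 start sites of all genes tested. A run of this form beginning within 10 bases of the start was found at 54.2%, against 32.4%. The windows shown here, 5′ to 3′, run from 10 bases before to 20 bases from the start, with capitals for the run nearest the start that holds a C followed by at least 4 further C or T, extended upstream over adjoining C or T, and for no other run. Where a gene had several starts, the one with the longest tract at the start was taken. The first 4 windows were picked to show runs at or across the start, and Rplp0, drawn along with them, had no such run. The last 4 are of genes from the top and the bottom of the fold change order.
Rps6, chr4:86857348-86857377, minus strand: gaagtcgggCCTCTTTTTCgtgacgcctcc
Rpl38, chr11:114668570-114668599, plus strand: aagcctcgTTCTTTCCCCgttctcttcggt
Rpl35, chr2:39005112-39005141, minus strand: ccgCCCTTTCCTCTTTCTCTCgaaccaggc
Rplp2, chr7:141447641-141447670, plus strand: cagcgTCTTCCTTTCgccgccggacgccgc
Rpl41, chr10:128549149-128549178, minus strand: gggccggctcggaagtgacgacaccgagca
Rps21, chr2:180257369-180257398, plus strand: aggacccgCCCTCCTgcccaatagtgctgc
Rpl12, chr2:32961702-32961731, plus strand: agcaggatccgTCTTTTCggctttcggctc
Rpl4, chr9:64173377-64173406, plus strand: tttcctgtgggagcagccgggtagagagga

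The 14 genes with a tract at the annotated start were all higher in luminal cells (33.6% of all genes), with a median log2 fold change of 0.78, beside 39 of 47 genes without one and a median of 0.71. Annotated starts can lie some bases from the true ones, so a missing run says only that these letters are not at that position. The letters CCGGAAG, on either strand, occurred in 36.1% of the members' start regions and 15.9% of those of all genes tested. AAGATGG occurred in 16.7% against 6.76%, GGGCGG in 61.1% against 60.0%, and TATAAA in 11.1% against 7.55%. The median log2 fold change with and without the letters was 0.81 and 0.70 for CCGGAAG, 0.66 and 0.78 for AAGATGG, 0.71 and 0.88 for GGGCGG, and 0.95 and 0.71 for TATAAA.

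The same comparison was drawn for other genes of the ribosome. Of the ribosomal proteins outside the symbol rule, Fau, which encodes a ubiquitin-like domain fused to a ribosomal protein, was higher by 0.71 (SE 0.26, adjusted p 0.0275) and Rpl36al by 1.20 (SE 0.29, adjusted p 0.00242). With the GC and length offsets neither passed, at -0.18 and 0.33. Rack1, a scaffold on the small subunit, did not pass (0.38, adjusted p 0.0659). Of the 78 ribosomal proteins of mitochondria, 60 (76.9%) passed towards luminal and 2 towards basal cells, beside 33.6% and 31.2% of all genes, with a median of 0.88. Their median transcript length was 1251.5 bases, and 46.4% of other genes of 1000 to 1500 bases passed towards luminal cells. They ranged from Mrpl33 (2.18, SE 0.35) and Mrps21 (1.81, SE 0.27) to Mrps18b (-0.45, SE 0.18) and Mrpl48 (-0.98, SE 0.15), and Mrps18b lost its call with the replicate number as a block (adjusted p 0.0582). With the GC and length offsets 36 and 5 passed in these directions, beside 32.9% and 30.7% of all genes.

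Other gene lists linked to translation were counted in the same way, and their difference from the ribosomal protein genes was not tested. The list of 23 TOP mRNAs outside the ribosome also holds snoRNA host genes. Of the 23, 6 (26.1%) passed towards luminal and 7 (30.4%) towards basal cells, near the 33.6% and 31.2% of all genes. Their median was 0.05, and with library totals as the scaling 3 passed towards basal cells. The initiation factor gene Eif3h (1.29, SE 0.14) and the elongation factor gene Eef1b2 (0.93, SE 0.24) were highest, and the snoRNA host genes Gas5 (-1.35, SE 0.25) and Snhg12 (-1.34, SE 0.21) lowest. These transcripts were longer than the members, with a median of 1891 bases. Of 52 ribosome assembly factors, 8 (15.4%) passed towards luminal and 20 (38.5%) towards basal cells, the latter near the 31.2% of all genes, with a median of -0.30 and a median length of 2331.5 bases. Nhp2 (1.23, SE 0.25), a protein of H/ACA snoRNA particles, and Polr1d (1.18, SE 0.22), a subunit of RNA polymerases I and III, were the highest. The nucleolar GTPase gene Gnl3 (-1.94, SE 0.21) and Heatr3 (-1.81, SE 0.21), which takes part in the import of RPL5, were the lowest.

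Of 16 regulators of ribosome production and TOP mRNA translation, 9 (56.2%) were higher in basal cells and 0 in luminal cells by edgeR, where 0 also had an unadjusted p under 0.05, and 0 by DESeq2 and limma voom. Of all genes, 31.2% and 33.6% were called in these directions. The regulators had a median length of 4464 bases, and 35.9% of other genes of 2500 to 5000 bases were called higher in basal cells. Myc, the transcription factor that drives ribosome synthesis in many cells, was at 37.5, 61.2, 55.5, 53.7 and 44.8 CPM in luminal and 397, 313, 267, 380.0 and 427 CPM in basal libraries. The groups did not overlap, with a log2 fold change of -2.82 (SE 0.18, adjusted p 8.77e-09). Mycn was at 0 in 4 luminal libraries and at 0.123 CPM in luminal library 3, against 1.29 to 2.04 CPM in basal libraries. Cnbp (-0.46, SE 0.15) and Ssb (-0.42, SE 0.12), which bind TOP mRNAs, were the highest among those called. The medians of the 3 lists stayed on their side of 0 or moved below it with the GC and length offsets, at -0.25 for the TOP mRNAs, -0.35 for the assembly factors and -0.41 for the regulators.

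**Figure D4:**
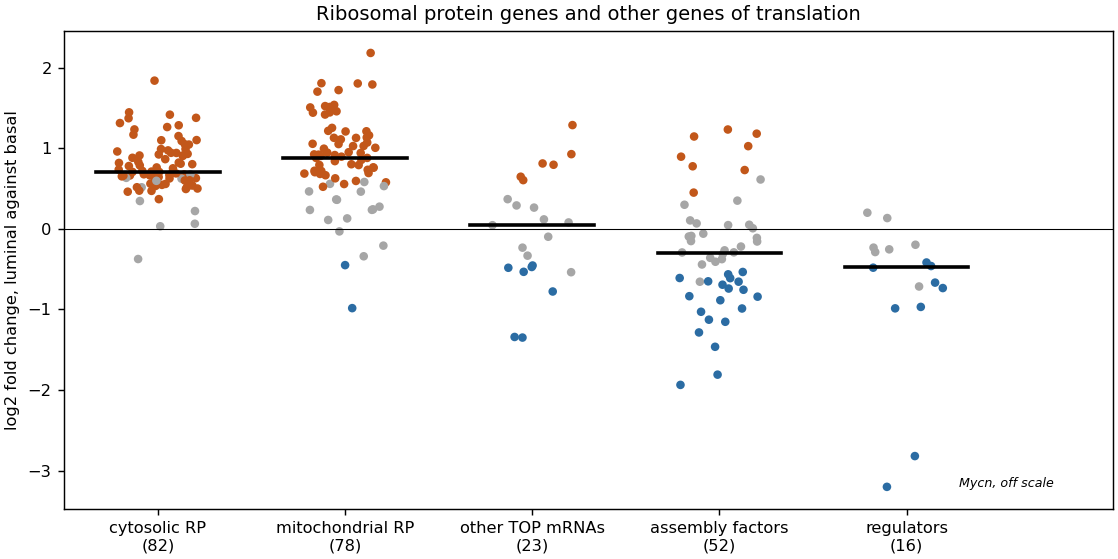
log2 fold change (luminal against basal) of the genes tested in 5 lists, with the number of genes in parentheses. Each point is a gene, orange or blue where it was higher in luminal or basal cells with an adjusted p under 0.05 and grey where not, and black lines are medians (0.71, 0.88, 0.05, -0.30 and -0.47). Mycn, at -5.75, is drawn at the lower edge.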

How the data were processed

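The deposited table held unnormalized whole-number counts made by the authors, with genes under Entrez identifiers and 1 column per library. The study's methods, written for 3 replicates per condition, describe poly(A) selection and single-end reads of 51 bases. That they hold for these libraries was assumed, and the shared-word values rest on that read length. The submitters' processing notes name cutadapt 4.2 and Bowtie2 2.3.5.1, and the builds mm10 and hg19. The counting tool, its strand setting and its treatment of reads with several matches are not given in the sources used here. Symbols came from RefSeq GRCm38.p6 (24570 of 24594 genes matched), and transcript lengths, GC content and shared words from GENCODE M21.

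Genes were filtered with filterByExpr of edgeR (minimum count 10, minimum total 15) and scaled with TMM factors. The main test was edgeR's quasi-likelihood test (4.0.16, R 4.3.3) on cell type, with Benjamini-Hochberg adjustment over all 14609 genes. SEs were derived from each log2 fold change and its F statistic. CPM uses TMM-scaled totals. p-values measure the spread between these libraries. The alternatives were other scalings and filters, DESeq2 1.42.0, limma voom 3.58.1, the replicate number as a block, offsets for GC content and length, adding 7 named pseudogene copies to their parents, thinning to 13203146 counts, and leaving out libraries. Chosen after the values were seen were the fits without both libraries of a replicate number and without luminal libraries 2 and 4 and basal library 4. Scaling to summed ribosomal protein counts was a further description, also added after the data were seen.

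Libraries were paired by a number that opens their descriptions and was taken to name an animal. Their deviations over all genes correlated at -0.13, 0.11, -0.07, 0.25 and 0.06. The members, lists and tests were chosen with earlier results of these data known. Members named with values were the 6 highest and 6 lowest log2 fold changes, the paralogues, structural and disease groups, X-linked genes, the 3 highest per kilobase, and the 2 highest and 2 lowest called genes of each further list. Further members were named with their values in view, and a few genes that these rules would name are not reported here. A simulation for the luminal and basal comparison drew genes independently of each other, with 200 of 14609 changed. There edgeR recovered 60.4% of those changed 2-fold and 94.2% of those changed 4-fold, with 5 false calls. In the data 33.6% of genes were called towards luminal and 31.2% towards basal cells, so these rates need not hold there.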

Additional observations from a re-analysis of the deposited data

Results flagged for a closer look

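Single libraries far from the other 4 of their group, by Dixon's test, were found in 20 of 116 groups of 5 libraries, where chance gives about 1 in 20 (5.8). Of the 20 values, 16 were in basal library 4, 3 in luminal library 4 and 1 in luminal library 3. Genes and shares that move together are not independent, so the count is only a description.

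In basal library 4 the ribosomal protein share was 3.48% against 2.15% to 2.49% in the other basal libraries, and the share of other short transcripts was 5.27% against 4.02% to 4.23%. The members that stood out there were Rpl41 (1368 CPM), Rps28 (157 CPM), Rps27l (57.8 CPM), Rpl39 (250.1 CPM), Rps25 (307 CPM), Rpl26 (512 CPM), Rpl31 (72.8 CPM), Rpl35 (192 CPM), Rps26 (389 CPM) and Rpl35a (125 CPM). Rps27l had the clearest gap, with 35.1 to 36.9 CPM in the other basal libraries. Fau (2053 CPM), Rpl36al (191 CPM), Mrps21 (20.7 CPM) and Nhp2 (51.9 CPM) also stood high there.

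In luminal library 4 Rps21 was at 429 CPM against 98.3 to 192 CPM, Rplp2 at 547 CPM against 184 to 279.9 CPM and Rpl36al at 512 CPM against 186 to 251 CPM. Mycn was at 0.123 CPM in luminal library 3 and at 0 in the other luminal libraries. No explanation of these values was tested.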

How the results depend on the processing

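Under 11 settings that changed the scaling, filter, test, depth, copies or block, 64 to 78 ribosomal protein genes were higher in luminal cells, against 72 reported. Offsets for GC content and length gave 10, and 12 with the block, with a median log2 fold change of 0.00686 and -0.0232 against 0.71. Leaving out a library, or both of a number, gave 45 to 78 genes and medians of 0.56 to 0.85, and the 45 was without replicate 2. The cause was not tested. Genes higher in basal cells numbered 1 (Rpl7l1 with the block) under DESeq2 size factors, no filter, at least 10 counts, DESeq2, limma voom and the replicate block, 7 and 6 with the offsets, and 0 to 1 with libraries left out. With the block 74 genes were higher in luminal cells, the 72 among them. It changed no other call among members described with values, and of the other genes named or listed as markers it ended those of Mrps18b and Junb (adjusted p 0.0624), which is in the dissociation list. Library totals shifted the median of all genes by 0.19 and upper-quartile factors by 0.12.

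Mitochondrial genes higher in luminal cells numbered 36 and 37 with the offsets, those higher in basal cells 1 with upper-quartile factors, library totals, factors without ribosomal protein genes or the block, 5 with the offsets, and 1 to 2 with libraries left out. With library totals 3 TOP mRNAs were higher in basal cells. Regulators higher in luminal cells numbered 1 with the offsets and without luminal libraries 2 and 4 and basal library 4.

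Among the genes named by rule, direction turned with the offsets, without and with the block, for Rpl10 (-0.396 and -0.391), Rps25 (-0.482 and -0.483), Rpl10a (-0.640 and -0.654), Rpl12 (-0.477 and -0.480), Rpl4 (-0.349 and -0.361), Rpl22l1 (-0.437 and -0.460), Rpl17 (-0.267 and -0.268), Rpl23a (-0.375 and -0.383), Rps7 (-0.175 and -0.188), Rps19 (-0.324 and -0.325), Rpl35a (-0.163 and -0.161), Fau (-0.185 and -0.192) and Rack1 (-0.0386 and -0.0547), and for Rplp2 with the block (-0.0246). Other members also turned with the offsets, among them Rps27 (-0.142), Rps12 (-0.277) and Rpl30 (-0.223), and the median of all members was 0.00686. Without filter Rpl12 was at -2.6e-05 and Rpl4 at -0.0324, and Rpl4 was at -0.0049 with DESeq2 size factors and DESeq2. Without the 3 libraries Rpl10a was at -0.116 and Rpl12 at -0.165. Leaving out libraries gave -0.0356 to 0.41 for Rpl10a, -0.115 to 0.24 for Rpl12 and -0.0817 to 0.11 for Rpl4. Over the single genes named, 1317 alternative values kept direction and side of the threshold, 19 newly passed it, 110 no longer did and 42 reversed.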
